A study of Homo sapiens with 18 samples.

Results

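The IL-6 family of cytokines signals through gp130, the receptor subunit encoded by IL6ST. The genes described here are 10 symbols named for this purpose, among 60642 in the count files. They comprise 3 ligands (IL6, IL11 and LIF), 4 receptor subunits (IL6R, IL6ST, OSMR and LIFR), the kinase JAK1, the transcription factor STAT3 and the feedback inhibitor SOCS3. RNA-seq was carried out on MDA-MB-231, an established human triple-negative breast cancer (TNBC) cell line, in 6 conditions with 3 biological replicates each. All cells were transfected with SMART-pool siRNAs, against PRMT5 (siPRMT5), against CBX3, the gene for HP1γ (siHP1γ), or of non-specific sequence (siNS). They were then exposed for 8 h to 100 nM dexamethasone (Dex), a synthetic glucocorticoid (GC), or to the same volume of its vehicle ethanol (Eth). The siRNAs deplete an mRNA over the whole cell population of 1 line, and no other line or genetic deletion was sequenced. In such bulk RNA, less mRNA in each cell and fewer cells with the mRNA cannot be told apart.

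As background, IL-6, IL-11 and LIF each bind a receptor subunit of their own (IL-6R, IL-11Rα and LIFR) and share gp130. Oncostatin M signals through gp130 with OSMR or LIFR. Joining of the subunits activates JAK1, which is bound to their intracellular part, and STAT3 is then phosphorylated and enters the nucleus. SOCS3, a STAT3 target, binds gp130 and JAK and shuts the signal off. In TNBC the pathway is known for autocrine IL-6, for growth and for invasion, and glucocorticoid receptor (GR) activated by GC is a textbook repressor of inflammatory cytokine genes, acting in part on AP-1 and NF-κB. PRMT5 is an arginine methyltransferase and HP1γ a chromatin protein, and the study examined both as coregulators of GR.

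IL11 fell with Dex whichever siRNA the cells had received, and it fell after PRMT5 depletion with or without Dex. SOCS3 rose with Dex by 1.53-fold in siNS cells and 1.39-fold in siHP1γ cells, with no detectable change in siPRMT5 cells. Only the rise in siNS cells passed the 1.5-fold limit set for Dex responses, and narrowly. SOCS3 also rose after PRMT5 depletion and fell after HP1γ depletion. LIFR likewise rose after PRMT5 depletion and fell after HP1γ depletion. IL6, LIF, IL6R, OSMR, JAK1 and STAT3 differed by at most 1.98-fold in any comparison, and IL6ST by at most 1.37-fold. The largest of these were rises without Dex, of IL6R after PRMT5 depletion (1.98-fold) and of the low IL6 after HP1γ depletion (1.94-fold). Against siNS cells, LIFR changed by at most 1.64-fold after either depletion.

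Counts were scaled to counts-per-million (CPM) with edgeR's TMM factors, and 15298 genes, all 10 members among them, had enough counts to be tested. Library totals ranged from 8682992 to 12472381 counts. PRMT5 mRNA fell from 249 to 7.41 CPM in siPRMT5 cells with Eth and from 239 to 10.5 CPM with Dex. CBX3 mRNA fell from 256 to 9.89 CPM in siHP1γ cells with Eth and from 230 to 13.7 CPM with Dex, and PRMT5 mRNA was also lower in these cells, by a log2 fold change of -0.25 with Eth and -0.35 with Dex (adjusted p = 0.0111 and 0.00123). The GC target TSC22D3 rose from 19.0 to 236 CPM with Dex in siNS cells, FKBP5 from 113 to 503 CPM and PER1 from 13.4 to 78.5 CPM. Of 8 markers of the line, VIM was at 5440 to 9590 CPM, CD44 at 506 to 857 CPM and EGFR at 114 to 264 CPM, and ESR1, PGR and CDH1 were at most at 0.207, 0.218 and 0.104 CPM. ERBB2 was at 24.5 to 36 CPM and the epithelial gene EPCAM at 8.57 to 14 CPM. Of 6 markers of other cells, ADIPOQ was at 0, CD3E and PTPRC were at most at 0.0883 and 0.221 CPM and CD14 reached 1.17 CPM. The endothelial gene PECAM1, however, rose with Dex from 1.29 to 4.14 CPM in siNS cells, and the summed level of the 6 markers moved from 1.66 to 1.99 CPM with Eth to 4.25 to 4.90 CPM with Dex. It was 3.20 to 4.08 and 6.26 to 8.71 CPM in siPRMT5 cells and 2.61 to 4.02 and 3.78 to 5.36 CPM in siHP1γ cells with Eth and Dex. Without PECAM1, the sum of the other 5 markers was at most 1.17 CPM in any library, and the part of other cells in the results was not tested. Of the replicate pairs, replicates 1 and 3 of siHP1γ Dex differed the most, with a chi-square of 11.3 per degree of freedom against 2.01 to 6.80 for the other pairs.

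The IL11 gene (hg38, chr19:55364382-55370463, minus strand) overlaps no other gene of GENCODE 44. The exons of IL6 (chr7:22725884-22732002, plus strand) share bases with those of STEAP1B and IL6-AS1. The promoters of IL11, which fell with Dex, and of IL6, for which no Dex response passed the thresholds, are shown because GR and AP-1 or NF-κB meet at such sequences in other systems. Both are from RefSeq on GRCh38.p14, read 5′ to 3′ on the strand of the gene. The IL11 window, chr19:55370464-55370713 (minus strand), holds the 250 bases before the start site. The IL6 window, chr7:22726950-22727146 (plus strand), begins 250 bases before the start site and stops where the first exon of other IL6 transcripts begins. Capitals mark matches to AP-1 (TGANTCA), the cAMP response element (TGACGTCA) or NF-κB (GGANTTTCC), searched on both strands.
IL11 promoter: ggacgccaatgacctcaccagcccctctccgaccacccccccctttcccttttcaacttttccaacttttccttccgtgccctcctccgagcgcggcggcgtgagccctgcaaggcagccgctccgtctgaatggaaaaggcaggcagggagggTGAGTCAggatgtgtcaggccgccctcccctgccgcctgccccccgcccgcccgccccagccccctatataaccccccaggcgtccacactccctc
IL6 promoter: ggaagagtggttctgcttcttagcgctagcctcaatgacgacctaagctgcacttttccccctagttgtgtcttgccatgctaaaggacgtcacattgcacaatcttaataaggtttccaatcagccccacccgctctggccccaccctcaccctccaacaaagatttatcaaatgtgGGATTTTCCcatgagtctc
The AP-1 match of IL11, TGAGTCA, starts 96 bases before the start site, and 6.57% of 35116 RefSeq promoter windows of 250 bases hold such a match. The NF-κB match of IL6, GGATTTTCC, starts 72 bases before the start site, and 1.45% of the windows hold one. The cAMP response element letters, found in 1.65% of the windows, were in neither. The core letters of a GR site (ACANNNTGT, in 4.61% of the windows) were in none of the 14 windows of the 9 members other than LIF. A STAT match (TTCNNNGAA, in 6.57% of the windows) was in 2 of the 3 LIFR windows and in no other member's windows. The windows follow RefSeq start sites, which can differ from the gene ends of GENCODE. For SOCS3 these sites were 78360925 and 78359667, whereas its GENCODE gene starts at 78360077. The bases directly before that start were thus not searched, and a match there is not excluded.

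IL11, a cytokine of stroma and of bone metastasis in breast cancer, was at 31.8, 31.2 and 28.4 CPM in the siNS Eth replicates and at 7.86, 6.43 and 6.35 CPM with Dex. With siHP1γ it was at 32.8, 30.8 and 28.2 CPM with Eth and at 8.34, 9.78 and 8.93 CPM with Dex. After PRMT5 depletion it was at 9.87, 8.45 and 10.1 CPM with Eth and at 1.37, 1.32 and 1.02 CPM with Dex. Every Dex library was below every Eth library of the same siRNA, and the siPRMT5 Dex libraries, with 14, 16 and 9 counts, were below all others. Their mean was 4.05% of that of siNS Eth. The Dex decrease was 4.40-fold in siNS cells (log2 fold change -2.14 with a standard error, SE, of 0.116, adjusted p = 2.3e-13, edgeR's quasi-likelihood test). Among the 162 genes called lower in siNS cells, 3 had a larger log2 decrease. The fall of IL11 with Dex was known when the members were chosen, so its rank and adjusted p describe it and are not independent support. In siHP1γ cells the decrease was 3.39-fold (log2 fold change -1.76, SE 0.109, adjusted p = 7.58e-12). In siPRMT5 cells it was 7.55-fold (log2 fold change -2.92, SE 0.188, adjusted p = 5.05e-12), and of the 420 genes called lower there none had a larger decrease. The response differed from that in siNS cells by -0.78 on the log2 scale in siPRMT5 cells, with a 95% interval of -1.30 to -0.25, but an adjusted p of 0.0681 over all genes missed the threshold. In siHP1γ cells it differed by 0.38 (95% interval 0.02 to 0.73, adjusted p = 0.24).

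Depletion of PRMT5 lowered IL11 3.20-fold without Dex (log2 fold change -1.68, SE 0.112, adjusted p = 8.36e-12) and 5.49-fold with Dex (log2 fold change -2.46, SE 0.196, adjusted p = 1.76e-10). The siPRMT5 Eth libraries, at 8.45 to 10.1 CPM, lay in the same range as the siHP1γ Dex libraries and above those of siNS Dex. HP1γ depletion gave no detectable difference without Dex, where the log2 fold change was 0.00 with a 95% interval of -0.21 to 0.21. With Dex, IL11 rose 1.30-fold after HP1γ depletion (log2 fold change 0.38, SE 0.132, adjusted p = 0.0371). That call rested on single libraries, since the adjusted p reached 0.144 without siNS Dex replicate 3 and was above 0.05 also without siNS Dex replicate 2, siHP1γ Dex replicate 2 or siHP1γ Dex replicate 3. It also ended with DESeq2 (adjusted p = 0.0679), with no filter on low counts (0.127) and in a fit of only the libraries compared (0.0848). Between the depletions, siPRMT5 cells had 7.14-fold less IL11 mRNA than siHP1γ cells with Dex and 3.21-fold less without (adjusted p = 3.01e-12 and 4.57e-12).

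LIF, known for its role in stem cells and in cachexia, was at 67.3, 77.5 and 73.7 CPM in siNS Eth and at 57.5, 50.3 and 58.6 CPM in siNS Dex. After HP1γ depletion it was at 102, 99.3 and 101 CPM with Eth and 63.5, 68.7 and 71.6 CPM with Dex. In siPRMT5 cells the values were 91.0, 88.3 and 77.2 CPM with Eth and 63.3, 57.9 and 55.2 CPM with Dex. With each siRNA the Dex libraries lay below the Eth libraries without overlap. The log2 fold changes with Dex were -0.39, -0.57 and -0.54 in siNS, siHP1γ and siPRMT5 cells (adjusted p = 0.00231, 2.21e-05 and 2.4e-05, edgeR), and all were under the 1.5-fold limit that a Dex call requires. HP1γ depletion raised LIF 1.38-fold without Dex (log2 fold change 0.47, SE 0.0812, adjusted p = 8.58e-05) and 1.22-fold with Dex (log2 fold change 0.29, adjusted p = 0.0122, rising to 0.0976 without siNS Dex replicate 2 and to 0.0519 without siHP1γ Dex replicate 3). PRMT5 depletion raised LIF 1.17-fold without Dex (log2 fold change 0.23, adjusted p = 0.0266), a call that ended without any of 4 libraries, siNS Eth replicates 1 and 3 and siPRMT5 Eth replicates 1 and 2, with an adjusted p of up to 0.148. With Dex, PRMT5 depletion gave a log2 fold change of 0.08 (95% interval -0.10 to 0.27, adjusted p = 0.46).

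IL6, the founding cytokine of the family, had few counts, between 16 and 48 per library. It was at 1.99, 1.63 and 2.18 CPM in siNS Eth and at 1.77, 3.27 and 2.81 CPM in siNS Dex, so these groups overlapped. In siHP1γ cells it was at 4.45, 2.81 and 4.05 CPM with Eth and 3.78, 2.54 and 4.04 CPM with Dex. With siPRMT5 it was at 3.86, 3.17 and 3.20 CPM with Eth and 3.32, 2.14 and 1.81 CPM with Dex. Without Dex, all libraries of both depletions were above those of siNS. IL6 rose 1.94-fold after HP1γ depletion (log2 fold change 0.96, SE 0.273, adjusted p = 0.00879) and 1.76-fold after PRMT5 depletion (log2 fold change 0.82, SE 0.283, adjusted p = 0.0217). The latter call ended without siNS Eth replicate 2 (adjusted p = 0.0851) or siPRMT5 Eth replicate 1. No Dex response of IL6 passed the thresholds, with log2 fold changes of 0.42 in siNS, -0.11 in siHP1γ and -0.49 in siPRMT5 cells and 95% intervals of -0.22 to 1.05, -0.62 to 0.40 and -1.06 to 0.09. The interval in siNS cells includes a change as large as those after the depletions. IL6-AS1, whose exons overlap those of IL6, was at 0.164 to 1.17 CPM, and STEAP1B at most at 0.322 CPM. The strand setting of the counting is not given in the sources used here, so how reads in the exons shared by IL6 and IL6-AS1 were counted is not known.

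**Figure D1:**
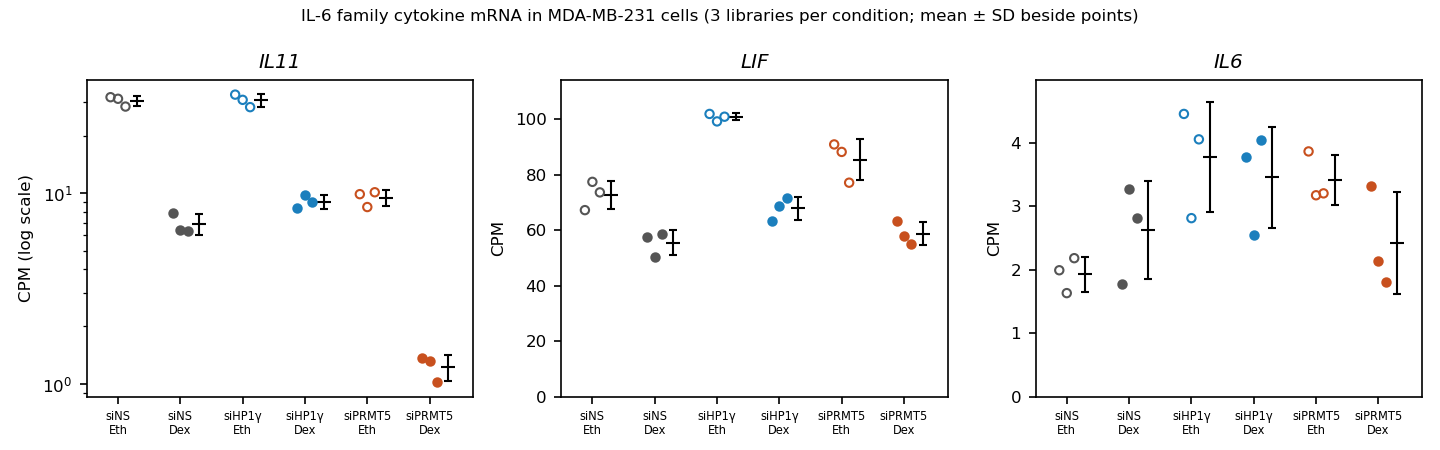
Level of IL11 (log axis), LIF and IL6 mRNA in CPM in the 18 libraries, by siRNA and by treatment (open points Eth, filled points Dex), with the mean and SD of the 3 replicates drawn beside each condition. The IL11 points fall from about the same height in siNS and siHP1γ cells with Dex, and the siPRMT5 Dex points, at 1.02 to 1.37 CPM, are the lowest, whereas the IL6 groups overlap in most conditions.

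IL6R, the subunit that binds IL-6, was at 13.4, 12.2 and 11 CPM in siNS Eth and 13.2, 13.5 and 14.9 CPM in siNS Dex. With siHP1γ it was at 11, 14.9 and 13.1 CPM with Eth and 17.8, 18 and 20.2 CPM with Dex. After PRMT5 depletion it was at 24.6, 24.8 and 22.9 CPM with Eth and 16.6, 18.9 and 17.1 CPM with Dex. The Dex libraries were thus above the Eth libraries in siHP1γ cells and below them in siPRMT5 cells. PRMT5 depletion raised IL6R 1.98-fold without Dex (log2 fold change 0.98, SE 0.114, adjusted p = 1.29e-07) and 1.27-fold with Dex (log2 fold change 0.34, SE 0.113, adjusted p = 0.017). The call with Dex ended without siPRMT5 Dex replicate 2 (adjusted p = 0.0897) or siNS Dex replicate 1, and with no filter on low counts (0.052). HP1γ depletion raised it 1.34-fold with Dex (log2 fold change 0.42, adjusted p = 0.00631), and without Dex the log2 fold change was 0.10 (95% interval -0.17 to 0.36). The Dex response was 0.19 on the log2 scale in siNS cells, 0.52 in siHP1γ cells and -0.45 in siPRMT5 cells (adjusted p = 0.374, 0.00414 and 0.00351), the last 2 past the p limit and under 1.5-fold. The difference of the response between siPRMT5 and siNS cells, tested as an interaction, was -0.64 (SE 0.161, adjusted p = 0.0225). It did not hold without any of 5 libraries, siPRMT5 Eth replicates 1 and 2, siPRMT5 Dex replicate 1 and replicate 3 of siNS Eth and siNS Dex, with an adjusted p of up to 0.0871.

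IL6ST, the gene of gp130, was at 214 to 246 CPM in siNS Eth, 197 to 232 CPM in siNS Dex, 259 to 301 CPM in siHP1γ Eth and 238 to 327 CPM in siHP1γ Dex. It was at 171, 224 and 221 CPM in siPRMT5 Eth and 200, 290 and 217 CPM in siPRMT5 Dex. Neighbours in the order of the 6 conditions all overlapped. With Dex, IL6ST had log2 fold changes of -0.07, 0.02 and 0.20 in siNS, siHP1γ and siPRMT5 cells, none past the thresholds. HP1γ depletion raised it 1.32-fold with Dex (log2 fold change 0.40, SE 0.12, adjusted p = 0.0162), but without siHP1γ Dex replicate 1, the highest library, the log2 fold change was 0.29 with an adjusted p of 0.0965, and without siNS Dex replicate 1 it was 0.34 (adjusted p = 0.0821). Without Dex the siHP1γ libraries were all above those of siNS with a log2 fold change of 0.31, at an adjusted p of 0.0501. Without Dex, siPRMT5 cells had 1.37-fold less IL6ST than siHP1γ cells (adjusted p = 0.00334). The pseudogene IL6STP1, which could share reads with IL6ST, was at 6.26 to 11.8 CPM.

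OSMR, the oncostatin M receptor, was at 148, 155 and 148 CPM in siNS Eth and at 158, 153 and 165 CPM in siNS Dex. It was at 193, 174 and 189 CPM in siHP1γ Eth, 171, 180 and 152 CPM in siHP1γ Dex, 122, 123 and 134 CPM in siPRMT5 Eth and 143, 149 and 144 CPM in siPRMT5 Dex. Without Dex, OSMR was highest in siHP1γ cells and lowest in siPRMT5 cells, with no overlap between the 3 siRNAs. It rose 1.23-fold after HP1γ depletion (log2 fold change 0.30, SE 0.0693, adjusted p = 0.00153) and fell 1.19-fold after PRMT5 depletion (log2 fold change -0.25, SE 0.0703, adjusted p = 0.00521). With Dex, the depletions gave log2 fold changes of 0.08 and -0.13, both short of the threshold (adjusted p = 0.437 and 0.151). The exons of OSMR overlap those of RICTOR, which was at 142 to 264 CPM, so part of this count is uncertain.

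LIFR, the LIF receptor, was at 132, 106 and 116 CPM in siNS Eth and at 150, 155 and 163 CPM in siNS Dex. After HP1γ depletion it was at 84.9, 90.0 and 96.1 CPM with Eth and 129, 113 and 92.2 CPM with Dex. In siPRMT5 cells it was at 147, 183 and 215 CPM with Eth and 227, 281 and 261 CPM with Dex. The siPRMT5 libraries stood highest and the siHP1γ libraries lowest under either treatment. PRMT5 depletion raised LIFR 1.54-fold without Dex (log2 fold change 0.62, SE 0.117, adjusted p = 0.000122) and 1.64-fold with Dex (log2 fold change 0.72, SE 0.115, adjusted p = 1.49e-05). HP1γ depletion lowered it 1.31-fold without Dex (log2 fold change -0.39, adjusted p = 0.0149) and 1.40-fold with Dex (log2 fold change -0.49, adjusted p = 0.00316). The call without Dex ended when replicate 1 of siNS Eth (adjusted p = 0.0817) or of siHP1γ Eth (0.0595) was left out. Between the depletions, LIFR was 2.01-fold higher in siPRMT5 than in siHP1γ cells without Dex and 2.30-fold higher with Dex (adjusted p = 1.21e-07 and 3.88e-09). The Dex response had log2 fold changes of 0.40, 0.30 and 0.50 with siNS, siHP1γ and siPRMT5, each under 1.5-fold (adjusted p = 0.0281, 0.159 and 0.00247), and the differences from siNS cells were -0.10 (95% interval -0.46 to 0.26) and 0.10 (95% interval -0.26 to 0.46). LIFR-AS1, which overlaps exons of LIFR, was at 1.32 to 4.20 CPM.

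JAK1, the kinase that gp130 receptors share, was at 223, 237 and 233 CPM in siNS Eth and 311, 332 and 320 CPM in siNS Dex. With siPRMT5 it was at 263, 290 and 302 CPM with Eth and 370, 404 and 422 CPM with Dex. In siHP1γ cells it was at 286, 249 and 277 CPM with Eth and 334, 318 and 297 CPM with Dex. JAK1 was higher with Dex in every library of each siRNA, by 1.39-fold in siNS cells (log2 fold change 0.48, SE 0.0711, adjusted p = 2.82e-05), 1.17-fold in siHP1γ cells (adjusted p = 0.0633) and 1.40-fold in siPRMT5 cells (adjusted p = 1.21e-05). None reached the 1.5-fold limit. PRMT5 depletion raised it 1.24-fold both without and with Dex (log2 fold changes 0.31 and 0.31, adjusted p = 0.00112 and 0.000794). HP1γ depletion raised it 1.17-fold without Dex (adjusted p = 0.0152), which was lost without siNS Eth replicates 1 or 3 or siHP1γ Eth replicates 1 or 3 (adjusted p of up to 0.0991), and gave -0.02 on the log2 scale with Dex (95% interval -0.17 to 0.13). JAK1 overlaps 9 annotated genes, among them RAVER2 in exons, which was at 23.6 to 46.9 CPM.

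STAT3, the factor that carries the signal to the nucleus, was at 145, 169 and 161 CPM in siNS Eth, 197, 173 and 169 CPM in siNS Dex, 184, 166 and 173 CPM in siHP1γ Eth and 152, 171 and 167 CPM in siHP1γ Dex. It was at 178, 180 and 185 CPM in siPRMT5 Eth and 201, 203 and 212 CPM in siPRMT5 Dex, and the siPRMT5 Dex libraries stood above all others. PRMT5 depletion raised STAT3 1.14-fold with and without Dex (log2 fold changes 0.20 and 0.19, adjusted p = 0.0319 and 0.0362). The call with Dex ended without any of 3 libraries, siNS Dex replicates 2 and 3 and siPRMT5 Dex replicate 3 (adjusted p of up to 0.14). The call without Dex ended without any of 6 libraries, siNS Eth replicates 1 and 3, the 3 siPRMT5 Eth replicates and siHP1γ Eth replicate 3 (up to 0.221). With no filter on low counts the adjusted p-values were 0.0879 with Dex and 0.0655 without. No Dex response of STAT3 passed the thresholds. These libraries hold mRNA, so the phosphorylation through which STAT3 acts was not measured.

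SOCS3, the feedback inhibitor, was at 21.5, 20.9 and 21.8 CPM in siNS Eth and at 34.6, 29.2 and 34.4 CPM in siNS Dex. With siHP1γ it was at 14.8, 12.9 and 13.6 CPM with Eth and at 18.5, 19.8 and 19.0 CPM with Dex. After PRMT5 depletion it was at 43.6, 40.3 and 47.6 CPM with Eth and at 40.6, 40.5 and 45.5 CPM with Dex. From the highest to the lowest mean, the conditions ran from siPRMT5 Eth and siPRMT5 Dex, which overlapped, to siNS Dex, siNS Eth, siHP1γ Dex and siHP1γ Eth, with no overlap between the later neighbours. Dex raised SOCS3 1.53-fold in siNS cells (log2 fold change 0.62, SE 0.0945, adjusted p = 3.89e-05), just past the 1.5-fold limit. Without siNS Dex replicate 1 or 3 the log2 fold change was 0.57 or 0.58, under that limit. In siHP1γ cells the Dex response was 0.47 on the log2 scale (1.39-fold, adjusted p = 0.00475) and in siPRMT5 cells it was -0.06 (95% interval -0.25 to 0.13, adjusted p = 0.735). The interaction of Dex with PRMT5 depletion was -0.68 (SE 0.128, adjusted p = 0.00296), and it kept an adjusted p of at most 0.016 when any 1 library was left out. That with HP1γ depletion was -0.15 (95% interval -0.45 to 0.16, adjusted p = 0.634).

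PRMT5 depletion raised SOCS3 2.05-fold without Dex (log2 fold change 1.04, SE 0.0933, adjusted p = 1.67e-09) and 1.28-fold with Dex (log2 fold change 0.36, SE 0.088, adjusted p = 0.00171). HP1γ depletion lowered it 1.55-fold without Dex (log2 fold change -0.64, SE 0.104, adjusted p = 4.08e-05) and 1.72-fold with Dex (log2 fold change -0.78, SE 0.0941, adjusted p = 7.64e-07). Between the depletions, siPRMT5 cells had 3.19-fold more SOCS3 mRNA than siHP1γ cells without Dex and 2.21-fold more with Dex (adjusted p = 4.34e-13 and 1.51e-10). The SOCS3 gene (hg38, chr17:78356778-78360077, minus strand) overlaps no annotated gene.

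**Figure D2:**
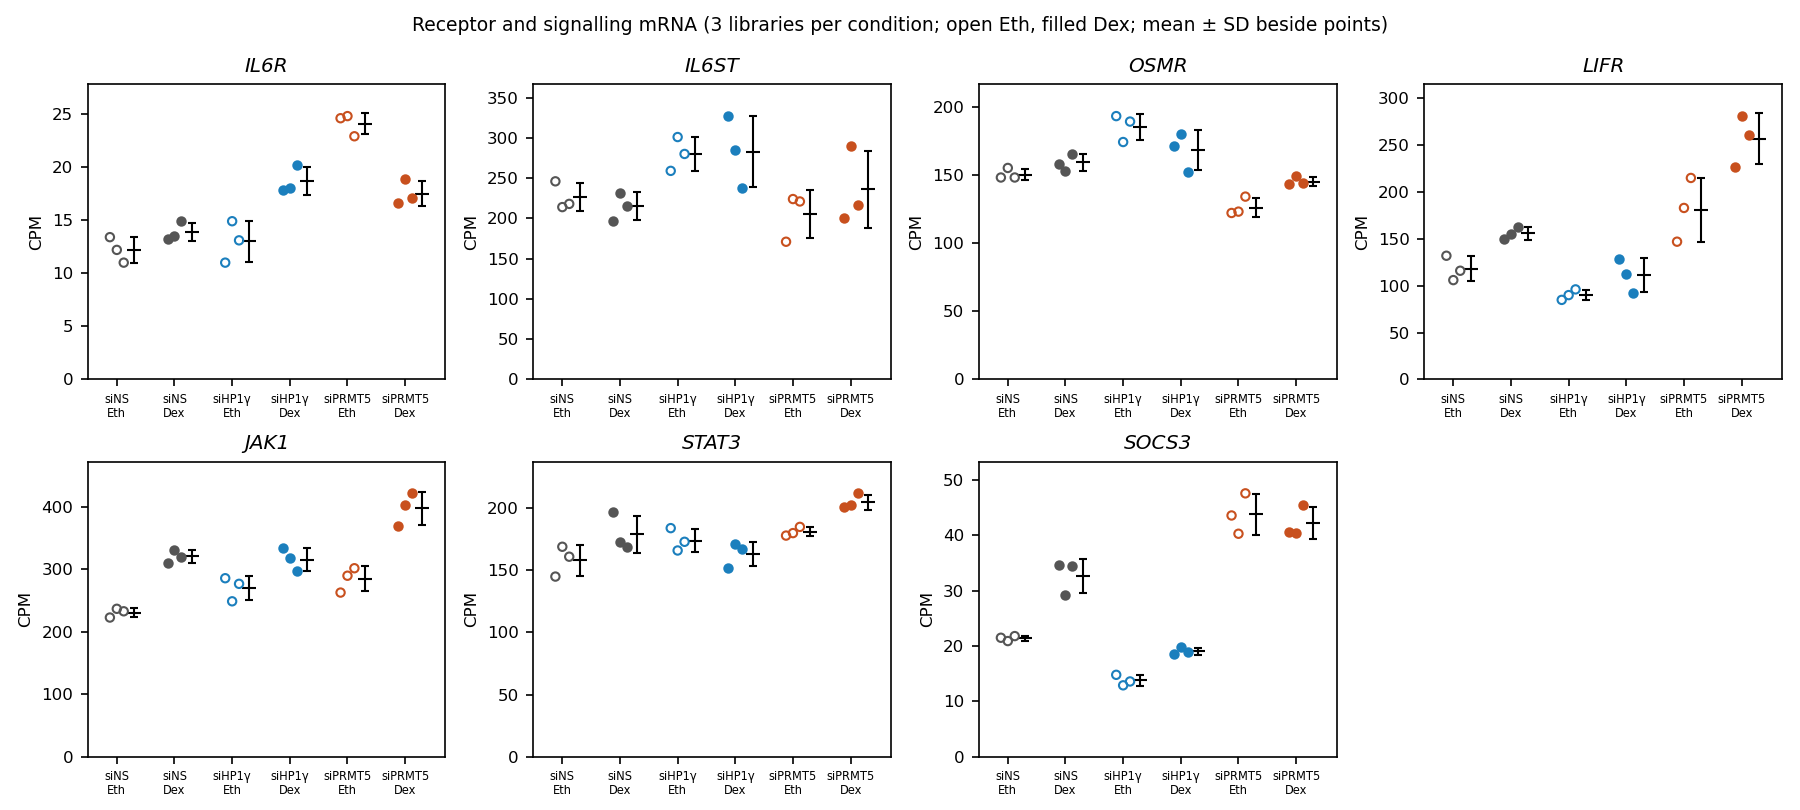
Level of the 4 receptor subunits, JAK1, STAT3 and SOCS3 in CPM in the 18 libraries (open points Eth, filled points Dex), with the mean and SD of 3 replicates beside each condition. SOCS3 and LIFR stand highest in siPRMT5 cells and lowest in siHP1γ cells, and IL6R in siPRMT5 cells is at 22.9 to 24.8 CPM with Eth and lower, at 16.6 to 18.9 CPM, with Dex. IL6ST overlaps between conditions that are neighbours in the order of means, but siHP1γ lies above siNS without overlap under either treatment.

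To compare levels between members, the CPM were divided by the summed length of each gene's exons in kilobases. The spread of the kit's reads over a transcript is not given in the sources used here, so this scale is approximate. In siNS Eth cells OSMR (20.9 CPM per kilobase), LIF (18.8), IL6ST (18.7), JAK1 (17.5) and STAT3 (14.1) were the most abundant on this scale. IL11 (11.4), LIFR (9.70) and SOCS3 (7.83) followed, and IL6R (1.74) and IL6 (0.447) were the lowest. With Dex in siPRMT5 cells, IL11 was at 0.459 CPM per kilobase. IL6R, which binds IL-6, was thus far below its partner subunit IL6ST per length.

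Over the 10 members, the Dex response passed the thresholds (adjusted p under 0.01 and at least 1.5-fold) for 2 in siNS cells, IL11 lower and SOCS3 higher, where 2.71% of the genes tested passed. It passed for IL11 alone in siHP1γ cells (1.67% of genes) and in siPRMT5 cells (5.44% of genes). IL11 was included with its fall with Dex already known, so these counts are not an independent result about the members. The median log2 fold change of the members with Dex was 0.19 in siNS cells, against 0.004 over all genes tested. It was -0.04 in siHP1γ cells, against -0.002, and 0.06 in siPRMT5 cells, against -0.001. The Eth and Dex libraries did not overlap for 5 members in siNS cells, 5 in siHP1γ cells and 7 in siPRMT5 cells, where 27.9%, 21.8% and 28.7% of all genes tested did not. The exact permutation p of each such member was 0.1, the smallest that 3 against 3 allow.

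**Figure D3:**
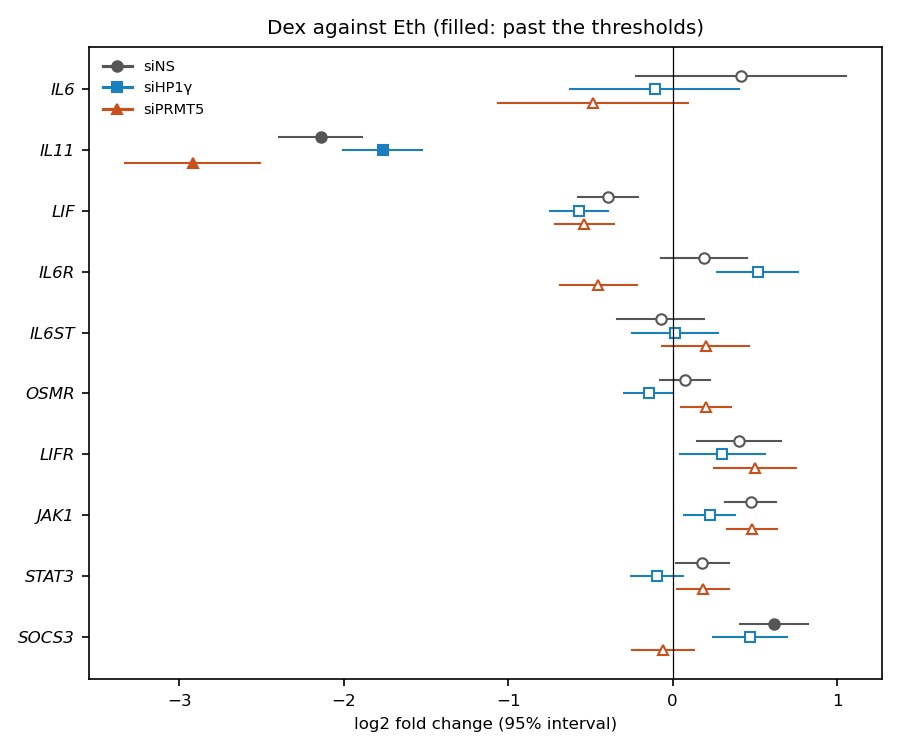
Log2 fold change of Dex against Eth (x axis) with its 95% interval for the 10 members, in siNS (circles), siHP1γ (squares) and siPRMT5 cells (triangles), filled where the adjusted p was under 0.01 and the fold change at least 1.5. IL11 lies at -2.14, -1.76 and -2.92, and for IL6R and SOCS3 the triangles lie to the left of the circles, at -0.45 and -0.06.

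With an adjusted p under 0.05, HP1γ depletion changed 6 members with Dex (IL11, LIF, IL6R and IL6ST higher, LIFR and SOCS3 lower), where 24.0% of the genes tested passed. Without Dex it also changed 6 (IL6, LIF, OSMR and JAK1 higher, LIFR and SOCS3 lower), where 31.8% passed. PRMT5 depletion changed 6 members with Dex (IL6R, LIFR, JAK1, STAT3 and SOCS3 higher, IL11 lower), where 42.4% of the genes passed. Without Dex it changed 9 (IL6, LIF, IL6R, LIFR, JAK1, STAT3 and SOCS3 higher, IL11 and OSMR lower), where 42.1% passed. The members' median log2 fold change was 0.185 with Dex and 0.184 without after HP1γ depletion, against 0.005 and 0.013 over all genes. It was 0.166 with Dex and 0.268 without after PRMT5 depletion, against 0.002 and 0. The libraries of siNS and depleted cells did not overlap for 6 and 7 members after HP1γ depletion (36.9% and 45.5% of all genes) and for 7 and 8 after PRMT5 depletion (51.5% and 49.1%), with and without Dex. The interaction with Dex passed for 2 members in siPRMT5 cells, IL6R and SOCS3, where 3.80% of genes passed, and for 0 in siHP1γ cells, where 0.399% passed. For the latter, 4 members (IL11, OSMR, JAK1 and STAT3) had an unadjusted p under 0.05 in edgeR, and DESeq2 gave 0 calls as well. The share of all genes at that unadjusted limit was not computed, so the 4 cannot be set against 0.399%. The comparisons with Dex share the siNS Dex libraries and those without share the siNS Eth libraries, so a deviation of these 3 libraries enters both depletions.

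**Figure D4:**
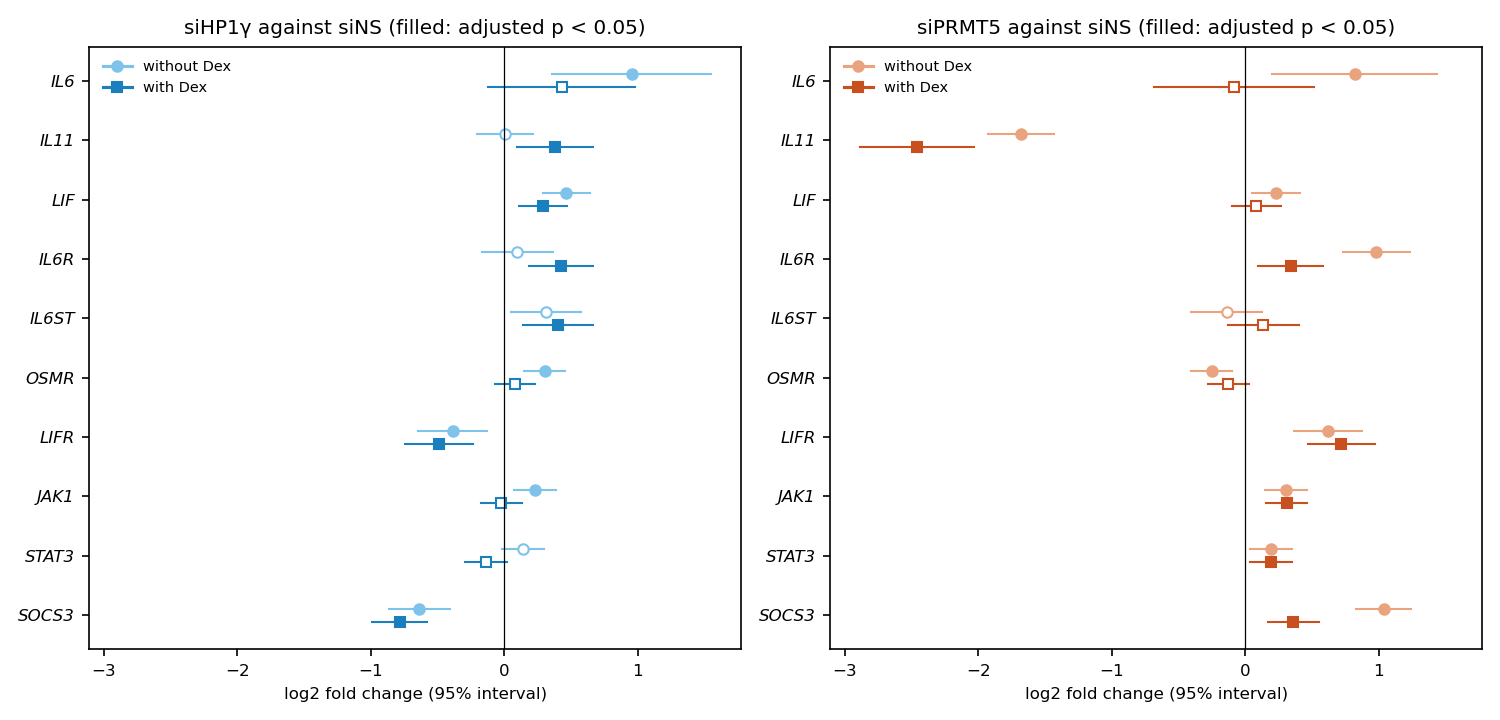
Log2 fold change with its 95% interval of siHP1γ against siNS (left) and siPRMT5 against siNS (right) for the 10 members, without Dex (circles) and with Dex (squares), filled where the adjusted p was under 0.05. LIFR and SOCS3 lie to the left of 0 in siHP1γ cells and to the right in siPRMT5 cells, and IL11 is the member farthest to the left in siPRMT5 cells, at -1.68 without and -2.46 with Dex.

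Compared directly, the depletions differed for 7 members with Dex, where 49.9% of genes differed, and for 7 without, where 48.4% did. With Dex, siPRMT5 cells had more LIFR, SOCS3, JAK1 and STAT3 and less IL11, LIF and OSMR mRNA than siHP1γ cells. The LIF difference (log2 fold change -0.21, adjusted p = 0.0409) was lost on leaving out any of 11 libraries, 7 of them from conditions outside the comparison, with an adjusted p of up to 0.169 without siPRMT5 Dex replicate 3, and that of OSMR (-0.21, adjusted p = 0.016) without siPRMT5 Dex replicate 1 or 3 or siHP1γ Dex replicate 2 (up to 0.12). Without Dex, siPRMT5 cells had more LIFR, SOCS3 and IL6R and less IL11, LIF, IL6ST and OSMR, with a log2 fold change of 0.88 for IL6R (adjusted p = 3.61e-07) and -0.55 for OSMR (adjusted p = 3.71e-07). The LIF difference there (-0.24, adjusted p = 0.0178) reached an adjusted p of 0.141 without siPRMT5 Eth replicate 3 and 0.0546 without siHP1γ Eth replicate 1.

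The counts of the pathway lists stand beside the same shares of all genes as those of the members, that is 2.71%, 1.67% and 5.44% for Dex in siNS, siHP1γ and siPRMT5 cells, 24.0% and 31.8% for HP1γ depletion and 42.4% and 42.1% for PRMT5 depletion with and without Dex. For the interactions with Dex the shares were 3.80% in siPRMT5 cells and 0.399% in siHP1γ cells. The other ligands of the family were silent or low. Among the other receptors, IL31RA was at group means of 21.1 to 46.4 CPM and IL27RA at 17.6 to 27.1 CPM. OSM and IL27 were at group means of at most 0.0363 CPM, and CTF1 (cardiotrophin) and CLCF1 were at means of 5.11 to 7.45 and 5.05 to 6.59 CPM. IL11RA, the IL-11 receptor, was at group means of 1.20 to 2.60 CPM. Of the 7 ligands 4 were tested, and of the 4 receptors 3. The median log2 fold change of the 4 ligands with Dex in siNS cells was 0.37, but none was called. Their siNS means with Eth and Dex were 1.02 and 1.61 CPM for CNTF and 0.389 and 0.734 CPM for EBI3, both low. For CTF1 they were 5.11 and 5.41 CPM, and for CLCF1 6.59 and 5.71 CPM. CTF1, the 1 ligand called in any comparison, rose 1.45-fold after HP1γ depletion without Dex (log2 fold change 0.53, adjusted p = 0.0152). IL31RA, the IL-31 receptor, rose after HP1γ depletion (log2 fold change 0.51 without Dex and 0.56 with Dex, adjusted p = 5.66e-05 and 3.02e-05) and fell after PRMT5 depletion (-0.62 and -0.26, adjusted p = 7.59e-06 and 0.0269). IL27RA rose after HP1γ depletion by 0.41 without and 0.29 with Dex (adjusted p = 0.00154 and 0.0229).

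Of the partners of JAK1 and STAT3, 0 of 9 passed the Dex thresholds in siNS cells (edgeR), with a median log2 fold change of -0.003. For 4 the unadjusted p was under 0.05, a limit at which the share of all genes was not computed. After PRMT5 depletion with Dex, 7 of 9 passed, with JAK2 (log2 fold change 0.84) higher and the adaptor GAB1 (-0.54) and STAT5B (-0.48) lower. Without Dex 6 of 9 passed, with STAT2 at 0.55, TYK2 at 0.44 and JAK2 at 0.33. HP1γ depletion with Dex lowered the phosphatase PTPN11 (-0.66) and GAB1 (-0.57), 2 of 9, and without Dex 5 of 9 passed, with PTPN11 at -0.62, TYK2 at 0.43, GAB1 at -0.41 and JAK2 at -0.34.

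Inhibitors of the pathway other than SOCS3 did not move together. With Dex in siNS cells 2 of 13 rose, the phosphatase PTPN1 (log2 fold change 0.75) and PIAS3 (0.70), a STAT3 inhibitor. After PRMT5 depletion with Dex 7 of 13 passed, and among these SOCS1 rose (1.62, adjusted p = 1.15e-05) from 1.31 to 1.5 CPM in the siNS Dex libraries to 3.96 to 4.69 CPM, whereas SOCS2 fell (-1.38, adjusted p = 1.18e-10) from 47.4, 56.4 and 52.3 CPM to 17.0, 21.4 and 21.5 CPM. PTPN2 (0.59) and PIAS3 (0.49) rose as well. Without Dex 6 of 13 passed, and SOCS2 fell from 72.5, 66.1 and 77.3 CPM to 24.9, 21.1 and 24.9 CPM (-1.60, adjusted p = 6.13e-12) where SOCS3 rose. HP1γ depletion without Dex changed 6 of 13, with SOCS7 (1.06) and SOCS1 (0.84) higher and SOCS2 (-0.60) lower, and with Dex 3 of 13, with SOCS4 (0.36) higher and SOCS2 (-0.29) and PTPN1 (-0.24) lower. Of the 3 genes of receptor shedding, ADAM17, which releases soluble IL-6R, rose after each depletion without Dex (0.46 for HP1γ, 0.40 for PRMT5) and with Dex (0.45 and 0.38), and ERAP1, an aminopeptidase, rose after PRMT5 depletion (0.71 without and 0.66 with Dex) and fell after HP1γ depletion (-0.42 and -0.49).

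Among 17 textbook STAT3 targets, 5 passed the Dex thresholds in siNS cells and all 5 rose, with CEBPD at a log2 fold change of 1.89, BCL6 at 1.33, CEBPB at 1.18 and BCL2L1 at 0.65. Several of these are also direct targets of GR in other cells. The median of the 17 was 0.20, against 0.004 over all genes tested. In siHP1γ cells 3 of 17 passed, CEBPD (1.64), CEBPB (0.73) and BCL6 (0.59), all higher. In siPRMT5 cells 9 of 17 passed, 5 higher and 4 lower, with CEBPD at 2.28, CEBPB at 1.77, BCL6 at 1.39 and MCL1 at 0.89. The interaction with PRMT5 depletion passed for 6 of 17, where 3.80% of all genes tested passed. Among the 6 were BCL3 (-1.10), PIM1 (-0.64), IRF1 (-0.60) and CEBPB (0.59), so these did not share a direction. The interaction with HP1γ depletion passed for BCL6 (-0.73, adjusted p = 0.0107), where 0.399% of all genes tested passed. PRMT5 depletion with Dex changed 10 of 17 (7 higher, 3 lower), led by CEBPD (1.22), BCL2L1 (-0.79), JUNB (-0.66) and CEBPB (0.58), and without Dex 11 of 17 (9 higher, 2 lower), led by IRF1 (1.16), MYC (-0.92), BCL3 (0.84) and CEBPD (0.83). HP1γ depletion changed 7 of 17 with Dex (MCL1 -0.78, VEGFA 0.64, BCL6 -0.56 and MYC -0.44) and 11 of 17 without (ICAM1 0.88, MCL1 -0.67, BCL3 0.65 and VEGFA 0.64). Of all genes tested, 42.4% and 42.1% passed after PRMT5 depletion and 24.0% and 31.8% after HP1γ depletion, with and without Dex.

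Factors known to control IL6 and IL11 transcription were examined beside the AP-1 match in the IL11 promoter. JUN, an AP-1 subunit, was at 359, 399 and 395 CPM in siNS Eth and at 158, 158 and 153 CPM in siNS Dex, and it was the 1 of 8 such factors that passed the Dex thresholds (log2 fold change -1.30, adjusted p = 5.96e-12). It fell with Dex in siHP1γ cells (-0.79) and siPRMT5 cells (-1.44) too, and the decrease was smaller in siHP1γ than in siNS cells (interaction 0.51, adjusted p = 0.0433). Without Dex, JUN was at 370, 354 and 315 CPM in siPRMT5 cells, with a log2 fold change of -0.15 against siNS cells (adjusted p = 0.134). FOSL1, another AP-1 subunit, was at 564, 504 and 517 CPM in siNS Eth and at 311, 256 and 311 CPM in siPRMT5 Eth (log2 fold change -0.85, adjusted p = 4.16e-08). With Dex it was at 395, 299 and 390 CPM in siNS cells and 225, 237 and 226 CPM in siPRMT5 cells (-0.66, adjusted p = 2.65e-06). After PRMT5 depletion with Dex, 6 of 8 factors passed, with JUND lower (-0.84) and FOSL2 and NR3C1, the gene of GR, higher (0.37 and 0.31), and without Dex 3 of 8 passed, with FOSL2 at 0.88 and JUND at -0.44. HP1γ depletion raised JUN (0.41) and SMAD3 (0.28) with Dex and 4 of 8 factors without Dex (SMAD3 0.37, FOSL2 0.29, NFKB1 0.28 and RELA 0.27). The part of these factors in the level of IL11 was not tested.

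Of 5 genes that act on the decay of IL6 mRNA, 3 rose with Dex in siNS cells, ZFP36L2 (log2 fold change 1.05), ZC3H12A (0.89) and ZFP36 (0.83). ZC3H12A encodes Regnase-1 and ZFP36 encodes tristetraprolin, both of which promote cytokine mRNA decay. In siPRMT5 cells 3 of 5 rose, ZFP36L2 (1.86), ZC3H12A (1.04) and ZFP36L1 (0.72), and in siHP1γ cells ZFP36L2 (0.90) alone. The interaction with PRMT5 depletion passed for ZFP36L2 (0.81, adjusted p = 0.00035). HP1γ depletion with Dex lowered 3 of 5, ZFP36L1 (-0.80), ZFP36L2 (-0.55) and ZFP36 (-0.32), and without Dex all 5 passed, 3 higher and 2 lower. PRMT5 depletion raised ZFP36L2 (0.80) and ZC3H12A (0.75) with Dex, and without Dex 4 of 5 passed.

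The genes whose log2 CPM followed IL11 most closely over the 18 libraries, out of 11410 genes that averaged 5 CPM or more, were EMP1 (Pearson r = 0.989), FRMD5 (0.975) and CDCP1 (0.970). The points share 6 conditions, so these values describe a common pattern over siRNA and treatment. EMP1, a membrane protein gene, had means of 722 CPM in siNS Eth, 396 CPM in siNS Dex, 798 and 512 CPM in siHP1γ cells and 472 and 201 CPM in siPRMT5 cells with Eth and Dex. FRMD5 had 54.9 and 32.9 CPM in siNS cells and 41.4 and 19.3 CPM in siPRMT5 cells. Both were, like IL11, lowest in siPRMT5 Dex cells, over a smaller range than IL11. Closest to LIF were STC1 (0.968), which encodes stanniocalcin, LTBP2 (0.941) and LOXL2 (0.933). The closest to IL6, ANKZF1 (0.793), XXYLT1 (0.762) and SNCG (0.747), were less close, and IL6 itself had at most 48 counts per library.

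**Figure D5:**
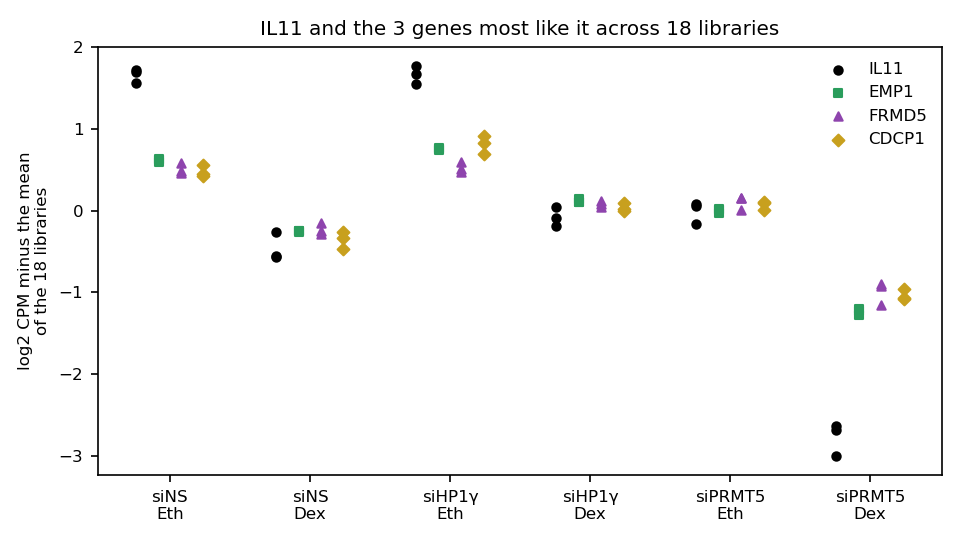
Log2 CPM of IL11, EMP1, FRMD5 and CDCP1 minus each gene's mean over the 18 libraries, by condition, with 1 point per library. All 4 genes are lowest in siPRMT5 Dex, EMP1 is higher in siHP1γ Dex than in siPRMT5 Eth where the IL11 points overlap, and the IL11 points span from -3.00 to 1.76, more than those of the other 3 genes.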

How the data were processed

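RNA of 18 cultures of MDA-MB-231 cells (6 conditions, 3 replicates each, called biological replicates by the study) was sequenced. As the study's methods describe, the authors made libraries of total RNA with a Lexogen kit, sequenced them on an Illumina NextSeq, aligned the reads to hg38 with Bowtie2 and counted reads per gene with htseq-count. Bowtie2 does not split a read over an intron, so reads across exon junctions are under-represented in these counts. The annotation and the strand setting of the counting are not given in the sources used here. The deposited values are raw counts per gene symbol, 1 file per library, with no normalization.

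The counts were filtered with edgeR's filterByExpr, scaled by TMM and fitted over all 18 libraries with 1 coefficient per condition (edgeR 4.0.16 in R 4.3.3, quasi-likelihood test, Benjamini-Hochberg adjustment over the 15298 genes tested, 12 residual degrees of freedom). Dex responses were called at an adjusted p under 0.01 and at least 1.5-fold, and depletions and interactions at an adjusted p under 0.05. The study states a 1.5-fold limit in one place and, in another, a 2-fold limit with an adjusted p under 0.01, so the 1.5-fold limit was combined with that p and the 2-fold limit tried as an alternative. Permutation tests were exact and two-sided. Log2 CPM used a prior count of 2. Fold changes are relative to the bulk of genes. Each SE is the absolute log2 fold change divided by the square root of edgeR's F statistic. Intervals of 95% were built from that SE with a t distribution on the 12 residual degrees of freedom. They are approximate and can differ from edgeR's own p near the limit, as for OSMR with Dex in siHP1γ cells (-0.295 to 0.004, unadjusted p = 0.0446). Library totals of 8682992 to 12472381 limit the precision for low genes such as IL6. On data simulated from these libraries (15026 genes), 200 of 200 changed genes were recovered for the Dex response in siNS cells with 0% false calls, and 190 of 200 for PRMT5 depletion without Dex with 5.94% false calls. The planted changes were larger than most of the members' changes and lay only in genes averaging 5 CPM or more. All genes had the same dispersion, and far fewer changed than were called after PRMT5 depletion. These rates therefore do not carry over to small changes or to low genes such as IL6.

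The members and the gene lists were chosen with earlier results of these data known, among them the fall of IL11 with Dex. The text names the 10 members, at most 4 called genes per list and comparison (by the size of the log2 fold change), the 5 check genes, and the 3 genes most like each cytokine by Pearson's r of log2 CPM. Markers of the line and of other cells, and genes that overlap a member, are named for their levels. A few genes of these lists are counted but not reported here by name. SOCS2 is given with its values in both treatments beside SOCS3, and AP-1 genes per library beside IL11. Libraries of the same replicate number showed no clear shared deviation, and the main fit had no replicate term. Alternatives were other scalings and filters, DESeq2 1.42.0, only the libraries compared, a replicate block, a 2-fold limit and leaving out each library. Sequences and gene positions are from RefSeq (GRCh38.p14) and GENCODE 44.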

Additional observations from a re-analysis of the deposited data

Results flagged for a closer look

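The interaction of Dex with PRMT5 depletion, tested in edgeR against siNS cells, passed the threshold for 2 members. For IL6R the log2 fold change with Dex was -0.45 in siPRMT5 and 0.19 in siNS cells, a difference of -0.64 (adjusted p = 0.0225), and Dex was lower than Eth for 3 of 3 siPRMT5 libraries. The IL6R call was lost on leaving out any of 5 libraries, with an adjusted p of up to 0.0871. For SOCS3 the difference was -0.68 (-0.06 in siPRMT5 against 0.62 in siNS cells, adjusted p = 0.00296). Its adjusted p stayed at most at 0.016 when any 1 library was left out. In both cases the siPRMT5 Eth libraries were already above all siNS libraries.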

How the results depend on the processing

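Of the 110 member values, 109 kept their direction and side of the threshold with DESeq2 size factors in edgeR, 105 with library size only, 101 with no filter on low counts, 108 with the replicate block, 108 with DESeq2 and 104 with only the libraries compared. Among those that turned, none of which was called, JAK1 after HP1γ depletion with Dex was 0.0612 with library size only. STAT3 in the siPRMT5 interaction was -0.0027 with library size only and -0.0124 with no filter, JAK1 there was -0.0092 with no filter, and IL11 after HP1γ depletion without Dex was -0.0116 with only the libraries compared. IL11 after HP1γ depletion with Dex lost its call with no filter, DESeq2 or only the libraries compared (adjusted p = 0.127, 0.0679 and 0.0848). With no filter the calls of IL6R and STAT3 after PRMT5 depletion with Dex (0.052 and 0.0879) and of STAT3 without Dex (0.0655) ended, and with only the libraries compared those of STAT3 after PRMT5 depletion without Dex (0.0561) and of OSMR between the depletions with Dex (0.0684). The LIF call between the depletions with Dex ended with DESeq2 size factors (0.0519), DESeq2 (0.0551), only the libraries compared (0.0883) and no filter (0.0892). A minimum of 10 counts in every library removed IL11, which had 9 in 1 library, and left 1, 0 and 0 members called with Dex in siNS, siHP1γ and siPRMT5 cells. A 2-fold limit left 1 member in siNS cells and 194, 106 and 373 genes in all. The siHP1γ interaction called 61 genes, and 374 with no filter, 94 with the replicate block and 298 with DESeq2. Libraries of the same replicate number showed no clear shared deviation (of 45 pairs of libraries with the same number, 13 had an r above 0.1, and 7 of 18 libraries were closest to their own number). Whether they came from the same experiment is not settled by this. With the replicate block, IL6ST gained calls after HP1γ depletion without Dex (0.31, adjusted p = 0.0447) and between the depletions with Dex (-0.28, adjusted p = 0.0479). The first was also gained with library size only (0.0154), no filter (0.000522) and only the libraries compared (0.000994), and the second with library size only (0.0181) and no filter (0.00358). STAT3 after HP1γ depletion without Dex gained a call with library size only (0.0415).

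Leaving out each library in turn, 32 of 47 member calls held in all 18 fits. Members called ranged from 1 to 2 for Dex in siNS cells, 1 to 2 in siHP1γ and 1 to 3 in siPRMT5 cells, 4 to 6 and 4 to 7 for HP1γ depletion with and without Dex, 6 to 9 for PRMT5 depletion without Dex and 1 to 2 for the siPRMT5 interaction, and all genes from 20 to 186 and 319 to 897 for the siHP1γ and siPRMT5 interactions. Signs turned for 13 values, none called. For IL6 the range was -0.29 to 0.0616 with Dex in siHP1γ cells and -0.36 to 0.0941 after PRMT5 depletion with Dex. For IL6ST it was -0.10 to 0.13 with Dex in siHP1γ cells, -0.0379 to 0.25 after PRMT5 depletion with Dex and -0.0197 to 0.21 in the siHP1γ interaction. It was -0.11 to 0.0106 for SOCS3 with Dex in siPRMT5 cells, -0.0596 to 0.0214 for JAK1 after HP1γ depletion with Dex, and -0.0616 to 0.0548 for IL11 and -0.0115 to 0.19 for IL6R after HP1γ depletion without Dex. In the interactions it was -0.21 to 0.0245 (siHP1γ) and -0.0305 to 0.25 (siPRMT5) for LIFR, and -0.044 to 0.0708 for JAK1 and -0.0395 to 0.0859 for STAT3 (siPRMT5). The causes were not tested.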
